A study of Rattus norvegicus with 18 samples.

Results

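The layer difference in dysplastic tongue is the subject here, that is, gene expression in dysplasia epithelia set against dysplasia fibroblasts, with 3 arrays on each side out of 18 in the series. The members are the arrays labelled D-E-1 to D-E-3 and D-fb-1 to D-fb-3, which were chosen by their labels and not by any measured value. The series holds epithelia and fibroblasts of rat tongue at 3 stages, which are normal tongue, dysplasia and squamous cell carcinoma (SCC), with 3 samples in each of the 6 groups. Lesions were raised with 4-nitroquinoline oxide (4NQO), a carcinogen that forms DNA adducts. Male Sprague Dawley rats drank water with 0.002% 4NQO and were killed between weeks 14 and 22, when leukoplakia or SCC could be seen on the tongue, while control rats drank distilled water. All dysplasia arrays therefore came from rats given the carcinogen, and each sample was pooled from 3 rats. No age of the rats was stated.

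The way the layers were taken sets what each sample can hold. Lesions were left in dispase II overnight in the cold, and the epithelial sheet was then peeled from the connective tissue and frozen. The connective tissue was digested with collagenase and plated, and the cells that had attached within a short time were collected as fibroblasts. No sorting by a surface marker was described, and other cells that attach could have been kept. The study's methods state that both layers were checked for purity by staining for epithelial and mesenchymal proteins.

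Oral dysplasia is a precursor lesion in which keratinocytes of the stratified lining lose their orderly maturation above a basement membrane that is still intact. In the healthy lining, basal keratinocytes divide, and their daughters switch keratins, build desmosomes and finally a cornified envelope. The lamina propria beneath holds fibroblasts that lay down collagen and proteoglycans and that send growth factors such as Fgf7 to the epithelium, together with vessels, nerves, muscle and immune cells. Interleukin 1 (IL-1), a main interest of the study, is released by keratinocytes and myeloid cells and drives fibroblasts to make cytokines, chemokines and matrix proteases.

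Values are log2 of the deposited linear probe set signals, and a difference is the mean of the epithelial arrays minus that of the fibroblast arrays, so a positive value means higher in epithelia. A gene was called when its adjusted p from limma was under 0.05, and 1 probe set stood for each gene. Within epithelia the 3 arrays correlated at 0.988 to 0.991, and between the layers at 0.810 to 0.876. Dysplasia fibroblasts 1 and 2 were the closest pair of all, with a median absolute difference of 0.0881 over probe sets above log2 7. Dysplasia fibroblasts 3 stood apart from both, with medians of 0.311 and 0.293. From it 2013 and 1953 probe sets were over 2-fold apart, against 258 between the first and second arrays. In the study's own clustering a dysplasia fibroblast sample fell with the normal ones, and its text does not say which. The bacterial and phage control transcripts added to each hybridization read 10.65 to 10.78 in epithelia and 12.04 to 12.21 in fibroblasts. Aligning the arrays on these controls moves every layer difference by 1.42 towards epithelia, and 18 of the 46 list medians turn from the fibroblast to the epithelial side under it.

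The layers differed across much of the transcriptome. Of 31042 probe sets, 14746 were called (47.5%), with 7774 higher in epithelia (25.0%) and 6972 higher in fibroblasts (22.5%). Counted by gene, 3480 of 14217 were higher in epithelia (24.5%) and 3647 higher in fibroblasts (25.7%), and the 3 epithelial values did not overlap the 3 fibroblast values for 9128 genes (64.2%). Large differences were more often on the fibroblast side, with 1116 genes at least 4-fold higher in fibroblasts and 351 at least 4-fold higher in epithelia. Aligned on the added controls, 26477 probe sets were called higher in epithelia and 1905 higher in fibroblasts, so the balance of the directions depends on the scaling, and counts below are read against the background shares given here. Whether samples of one layer came from separate pools of rats is not stated by the labels, so that the p-values speak only of how far these arrays scattered.

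Markers of both layers were read first, to check the labels. Of 21 epithelial markers measured, 16 were called higher in epithelia and 0 higher in fibroblasts, with a median difference of 1.42. All 24 fibroblast markers were called higher in fibroblasts, with a median of -4.33. The mean log2 signal of the epithelial list was 11.66, 11.73 and 11.66 in epithelia 1 to 3 and 10.45, 10.44 and 9.65 in fibroblasts 1 to 3. Epithelial markers were thus bright on the fibroblast arrays too, which held for the other stages as well, where this mean ran from 8.41 to 10.18 in normal and from 9.58 to 10.84 in SCC fibroblasts. The basal keratin gene Krt5 read 13.58, 13.42 and 13.44 in epithelia and 13.67, 13.69 and 13.37 in fibroblasts, and its partner Krt14 read 14.30, 14.22 and 14.19 against 14.10, 14.10 and 13.75. Neither differed by the test (difference of -0.09, adjusted p = 0.611 for Krt5, and 0.25, adjusted p = 0.187 for Krt14, limma). The fibroblast label was thus met by the fibroblast list, but keratinocyte transcripts were not near background there, and their part in the layer differences was not tested. In bulk samples such as these, fewer cells of a type and less RNA per cell cannot be told apart.

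The fibroblast list gave 7.45, 6.74 and 6.68 in epithelia 1 to 3 and 10.94, 10.90 and 11.87 in fibroblasts 1 to 3. Col1a2, a chain of type I collagen, read 8.10, 6.28 and 5.83 in epithelia and 12.91, 12.84 and 13.72 in fibroblasts. Epithelia 1 was the highest of the epithelial arrays for this gene, and fibroblasts 3 was the highest of all. Pdgfra, the receptor that marks most fibroblasts of connective tissue, was 104-fold higher in fibroblasts (-6.70, SE 0.38, adjusted p = 1.5e-05, limma). Vim, the intermediate filament of mesenchymal cells, was 16.5-fold higher in fibroblasts (-4.04, SE 0.23, adjusted p = 1.55e-05, limma).

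Other cells of the connective tissue were measured on the fibroblast arrays as well. All 22 endothelial markers were called higher in fibroblasts (median -4.70). Vwf, the clotting factor stored by endothelial cells, read 5.97, 5.60 and 5.69 in epithelia and 10.04, 10.46 and 10.37 in fibroblasts. The mean of the endothelial list was 9.83 to 10.27 in fibroblasts and 5.47 to 6.09 in epithelia. Smooth muscle and pericyte markers were higher in fibroblasts for 15 of 20 (median -3.08), with Tagln at 5.54, 5.50 and 5.12 against 11.96, 12.19 and 12.04. Skeletal muscle, which lies directly under the tongue mucosa, gave 21 of 28 markers higher in fibroblasts and 1 higher in epithelia (median -1.60). Myl1 was on the fibroblast side at a difference of -3.76 (SE 0.23). These lists moved with the fibroblast layer as the matrix genes did, and their part in those differences was not tested.

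Mast cell and myeloid markers were on the same side. Mast cell genes were higher in fibroblasts for 9 of 13 (median -3.71), with a list mean of 7.89 to 8.30 in fibroblasts and 4.54 to 4.89 in epithelia. The list had 2 genes higher in epithelia, Kit (0.67) and Mcpt4 (0.54), while Mcpt1 and Mcpt8 were not called. The granule protease genes Cpa3 and Cma1 were 72.9-fold and 73.0-fold higher in fibroblasts (-6.19, SE 0.27, and -6.19, SE 0.26), and Mcpt10, another mast cell protease, read 1.90, 0.93 and 1.24 against 8.44, 8.28 and 8.30. The epithelial signals of Mcpt10 are close to the bottom of the scale, where a difference is set by how low values were summarized, and the difference of -6.99 became -3.34 with values under 32 set to 32. Macrophage and monocyte markers were higher in fibroblasts for 14 of 20 (median -1.99), or for 9 without epithelia 2. Their mean was 8.42 to 10.05 in fibroblasts, and the highest value was in fibroblasts 3. C1qa, a complement subunit made by tissue macrophages, read 8.89 and 8.57 in fibroblasts 1 and 2 but 11.96 in fibroblasts 3, against 7.46, 6.17 and 6.69 in epithelia (-3.03, adjusted p = 0.0206), a call that was lost without epithelia 2 (adjusted p = 0.0713) or epithelia 3 (adjusted p = 0.0606, limma). Neutrophil markers were higher in fibroblasts for 9 of 12 and in epithelia for 2, and T, NK and B cell markers for 4 of 21, with a median near 0 (-0.14, or 1.28 aligned on the added controls).

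**Figure D1:**
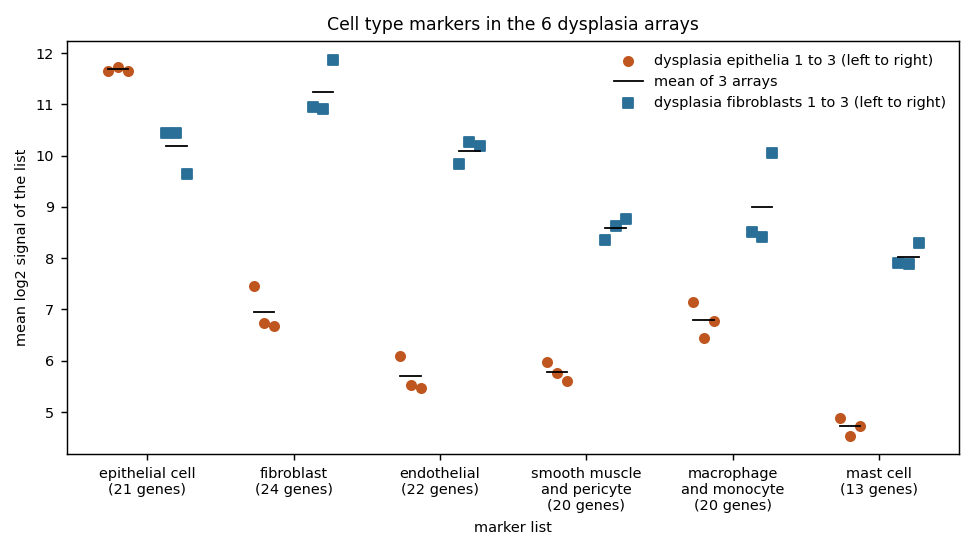
Mean log2 signal of 6 cell type marker lists on each of the 6 dysplasia arrays (circles, epithelia; squares, fibroblasts; line, mean of the 3 arrays; numbers of genes under each list). The epithelial list is 11.66 to 11.73 in epithelia and 9.65 to 10.45 in fibroblasts, whereas the fibroblast, endothelial, smooth muscle, macrophage and mast cell lists are higher on every fibroblast array.

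The 12 genes furthest on the epithelial side were Esyt3, Elmod1, Slc15a1, C20h6orf15, Kprp, Cdsn, LOC100363236, Rnf222, S100a7l2, Tgm5, Defb1 and Gdpd3, with differences from 5.57 down to 4.89. Esyt3, an extended synaptotagmin that tethers membranes, read 9.54, 10.30 and 9.82 in epithelia and 4.08, 4.03 and 4.83 in fibroblasts (5.57, SE 0.27, adjusted p = 9.6e-06, limma). Tgm5, a transglutaminase that crosslinks envelope proteins, differed by 4.94 (SE 0.19). Defb1, a beta-defensin secreted by epithelia, read 10.16, 10.52 and 10.68 against 5.77, 5.34 and 5.52 (4.91, SE 0.18). These 3 genes were evenly low over the fibroblast arrays. Cdsn, which encodes the corneodesmosin of cornified layers, read 13.02, 13.22 and 12.83 in epithelia and scattered more in fibroblasts (8.58, 6.32 and 8.99), and the scatter was wider still for LOC100363236 (7.54, 5.02 and 10.58). All 12 calls were kept with each of the 6 arrays left out in turn, as were those of 5134 of all 14217 genes. The 12 were chosen for large differences without overlap, so this adds little.

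The 12 genes furthest on the fibroblast side were Lpl, Scara5, Abca8a, Dpt, Mfap4, Aoc3, Il6, C1qtnf3, Thbs4, S100b, Mcpt10 and Serping1, with differences from -7.84 to -6.97. Lpl, the lipoprotein lipase of fat and stromal cells, read 5.46, 5.17 and 4.78 in epithelia and 12.98, 12.89 and 13.07 in fibroblasts (-7.84, SE 0.19, adjusted p = 2.82e-06, limma). Dpt, the matrix protein dermatopontin, read 6.14, 5.37 and 5.03 against 12.99, 12.93 and 13.54 (-7.64, SE 0.30). The cytokine Il6 read 5.44, 3.97 and 4.10 against 11.53, 11.71 and 11.76 (-7.17, SE 0.37, adjusted p = 1.03e-05, limma). As its epithelial signals are at the low end, the size is uncertain, and it was -6.52 with values under 32 set to 32. Each of these 12 was also kept with every array left out. Layers that do not overlap were a condition for naming the 12 in either direction, met by 64.2% of all genes. Aoc3 has a second probe set that was not called.

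**Figure D2:**
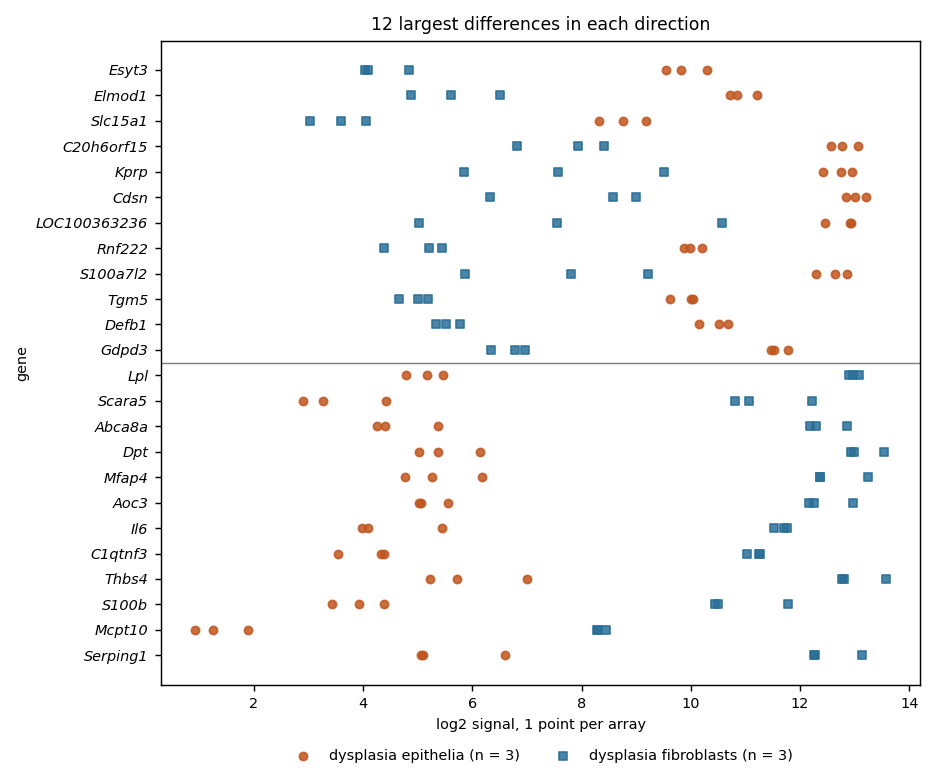
Log2 signal on each dysplasia array of the 12 genes with the largest difference in each direction (circles, epithelia; squares, fibroblasts; the line parts the directions). Genes were chosen among those whose layers do not overlap. Among the 24, the fibroblast values scatter most for LOC100363236, Kprp, S100a7l2 and Cdsn.

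Promoters were read for the genes with the largest differences, because genes of one layer may share short sequences there. RefSeq promoters on GRCr8, from 250 bases before to 50 after the start, were found for 273 of the 351 genes at least 4-fold higher in epithelia and for 838 of the 1116 at least 4-fold higher in fibroblasts. TGANTCA, the letters bound by AP-1 factors, was found on either strand in 42 of the 273 (15.4%) and in 56 of the 838 (6.68%), beside 5.44% of the 11733 measured genes with a promoter. Me1, Klk6, Loricrin, Prdm1 and Rnf222 are among the 42. TATAAA stood in 30 of the 273 and in 102 of the 838 (12.2%), beside 8.45% of all measured, and GGGCGG in 51.3% and 54.1%, beside 57.5%. These shares describe letters in a window and were not tested. The 4 promoters below are of Esyt3, Dpt, Il6 and Rnf222. Esyt3, Dpt and Il6 were the first with a promoter among the 12 genes of their direction. Rnf222, a ring finger gene, was added after its values were seen because it holds TGANTCA. Slc15a1, the next epithelial gene with a promoter, holds none of the motifs and is not printed. TGANTCA was in 1 of the 10 promoters found for the 12 epithelial genes. Capitals mark the motif, at -71 and -52 for GGGCGG in Esyt3 (chr8:108796581-108796880, minus strand), at -157 for TGANTCA in Rnf222 (chr10:54095359-54095658, plus strand) and at -29 for TATAAA in Dpt (chr13:79656091-79656390, plus strand), and Il6 (chr4:5894526-5894825, minus strand) holds none of the motifs.
Esyt3: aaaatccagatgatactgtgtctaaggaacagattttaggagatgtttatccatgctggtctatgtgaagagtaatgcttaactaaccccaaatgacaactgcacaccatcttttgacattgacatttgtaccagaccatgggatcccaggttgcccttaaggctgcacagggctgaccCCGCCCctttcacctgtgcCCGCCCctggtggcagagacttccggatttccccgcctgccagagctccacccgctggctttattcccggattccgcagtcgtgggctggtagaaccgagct
Rnf222: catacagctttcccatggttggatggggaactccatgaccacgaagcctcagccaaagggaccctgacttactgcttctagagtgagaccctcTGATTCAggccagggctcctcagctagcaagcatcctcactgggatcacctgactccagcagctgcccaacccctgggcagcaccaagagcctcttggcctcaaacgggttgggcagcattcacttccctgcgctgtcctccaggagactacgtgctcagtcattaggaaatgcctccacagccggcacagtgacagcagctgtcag
Dpt: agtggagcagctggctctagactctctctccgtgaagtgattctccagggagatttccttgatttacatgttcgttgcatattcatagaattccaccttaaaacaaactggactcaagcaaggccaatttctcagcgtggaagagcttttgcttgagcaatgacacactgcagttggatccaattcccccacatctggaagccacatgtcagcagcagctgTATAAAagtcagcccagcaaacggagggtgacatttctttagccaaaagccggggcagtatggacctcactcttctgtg
Il6: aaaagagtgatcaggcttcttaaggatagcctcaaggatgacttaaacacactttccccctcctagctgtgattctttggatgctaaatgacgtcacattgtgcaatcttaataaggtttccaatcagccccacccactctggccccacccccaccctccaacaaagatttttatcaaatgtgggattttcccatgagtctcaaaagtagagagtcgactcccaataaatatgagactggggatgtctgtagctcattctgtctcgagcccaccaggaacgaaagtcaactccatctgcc

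Genes of the outer, differentiating layers separated the epithelia best. In the cornified envelope and barrier list, 26 of 27 genes were called higher in epithelia and 0 higher in fibroblasts, with a median of 2.53 beside 0.06 over all genes. Klk6, a kallikrein protease of the epithelial surface, read 8.46, 9.19 and 9.23 in epithelia and 4.90, 4.61 and 5.04 in fibroblasts (4.11, SE 0.23). Cnfn, which encodes the envelope protein cornifelin, read 13.23, 13.45 and 13.32 against 9.97, 9.69 and 9.73 (3.54, SE 0.14). Loricrin, the main protein of the envelope, was high in both (14.01, 14.06 and 13.98 against 12.06, 10.83 and 12.52), so that its difference was 2.21 (SE 0.39, adjusted p = 0.00269, limma). Tgm1, the transglutaminase anchored to the membrane, differed by 3.16 (SE 0.20), and Sprr2d, a small proline-rich envelope precursor, by 2.88 (SE 0.30).

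Keratin genes differed between the samples to unequal degrees. Of 20 measured, 10 were called higher in epithelia and 1 in fibroblasts (median 0.68). Krt78 led, at 12.47, 12.89 and 12.53 in epithelia and 8.16, 7.31 and 9.21 in fibroblasts (4.40, SE 0.43), and Krt33b differed by 4.27 (SE 0.46). Krt10, the keratin of cornifying layers, read 13.31, 13.32 and 12.85 against 11.49, 11.69 and 9.82 (2.16, SE 0.46). The keratin pair of the mucosal suprabasal layers, Krt13 and Krt4, differed by only 0.70 (SE 0.13) and 0.72 (SE 0.14), with both at 13.20 or more on every array, while the basal pair Krt5 and Krt14 did not differ by the test. Krt8, a keratin of simple epithelia, was the gene on the fibroblast side (-1.61, adjusted p = 0.0178), and that call was lost without epithelia 1 (adjusted p = 0.0665) or epithelia 3 (adjusted p = 0.0639, limma).

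Cell junction genes were mostly on the epithelial side. Desmosome, tight junction and adherens junction genes were higher in epithelia for 22 of 28, with 0 higher in fibroblasts and a median of 1.09. Dsc1, the desmocollin of upper layers, read 12.61, 12.60 and 12.18 in epithelia and 8.76, 8.17 and 6.66 in fibroblasts (4.60, SE 0.48). Cldn1, the barrier claudin, read 9.66, 9.87 and 9.66 against 6.62, 6.47 and 6.21 (3.30, SE 0.15), and Ocln, which encodes occludin, differed by 2.52 (SE 0.13). Cdh1, the E-cadherin of all the layers, differed less, by 1.27 (SE 0.18). Contacts with the basement membrane, in contrast, gave 0 of 13 genes higher in epithelia and 6 higher in fibroblasts, with a median of -0.40 that turned to 1.02 when aligned on the added controls. Itgb1, the integrin beta 1 chain that most cells carry, was the clearest of them (-1.43, SE 0.17). Lama5, a laminin chain, was called higher in fibroblasts (-1.32), but 2 other probe sets of the gene were called in the opposite direction.

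Transcription factors of squamous differentiation were higher in epithelia for 17 of 26 and higher in fibroblasts for 2 (median 1.04). Grhl1, a grainyhead factor that drives desmosomal cadherins, read 11.55, 11.73 and 11.60 in epithelia and 8.71, 8.59 and 7.54 in fibroblasts (3.35, SE 0.30). Prdm1, a repressor active in upper layers, differed by 2.77 (SE 0.25) and Dlx3, a homeobox factor of the granular layer, by 2.59 (SE 0.36). The genes on the other side were Runx1 (-2.31, SE 0.23), a factor of blood and progenitor cells, and Gata3 (-1.66, SE 0.16), a factor of keratinocytes and lymphocytes, for which a second probe set was not called alike.

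Matrix genes were nearly all on the fibroblast side. All 34 genes of fibrillar collagens and their processing were called higher in fibroblasts (median -3.22), and 41 of 44 proteoglycan, matricellular and elastic fibre genes (median -3.67), with 0 higher in epithelia in either list. Col14a1, a fibril-associated collagen, read 5.64, 4.80 and 5.10 in epithelia and 11.61, 11.46 and 12.69 in fibroblasts (-6.74, SE 0.35). Loxl1, a crosslinker of elastin, differed by -5.84 (SE 0.32). Fbn1, the fibrillin of microfibrils, differed by -6.66 (SE 0.37) and Fn1, fibronectin, by -5.49 (SE 0.28). Fibroblasts 3 was the highest array for all 4 genes, and without it the lists again gave 34 and 41 calls, with medians of -2.83 and -3.33.

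Proteases and their inhibitors were mostly higher in the fibroblast samples too. Of 30 metalloproteinases, TIMPs and plasminogen genes, 23 were higher in fibroblasts and 1 in epithelia (median -1.87). Mmp3, stromelysin, read 5.94, 5.56 and 5.95 in epithelia and 11.57, 11.50 and 12.80 in fibroblasts (-6.14, SE 0.34, adjusted p = 1.36e-05, limma). The gelatinase Mmp2 and the inhibitor Timp1 differed by -5.48 (SE 0.33) and -4.68 (SE 0.37), with 1 other probe set of Mmp2 not called alike. The single gene on the epithelial side was Serpinb2, the plasminogen activator inhibitor of keratinocytes, at 12.96, 12.81 and 12.72 against 11.76, 11.72 and 11.95 (1.02, SE 0.14). Mmp13, collagenase 3, read 7.12 and 6.83 in fibroblasts 1 and 2 and 11.57 in fibroblasts 3, against 5.44, 5.38 and 5.24 in epithelia, so that the difference of -3.15 missed the threshold (adjusted p = 0.0516) and was -1.62 and called without fibroblasts 3 (adjusted p = 0.00028, limma). Mmp9 had the same outlying array (7.55, 7.26 and 10.82 against 4.74, 5.76 and 4.91), and its call (-3.41, adjusted p = 0.0149) was lost without epithelia 1 (adjusted p = 0.0557) or epithelia 3 (adjusted p = 0.0501, limma).

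Among 34 transcription factors of mesenchymal cells, 24 were higher in fibroblasts and 6 in epithelia (median -2.67). Meox2, a homeobox factor of mesoderm, read 4.87, 4.72 and 4.31 in epithelia and 10.37, 10.45 and 11.84 in fibroblasts (-6.25, SE 0.39). Twist1 and Zeb2, which repress E-cadherin, differed by -5.73 (SE 0.35) and -5.51 (SE 0.29), and Prrx1, a factor of limb and facial mesenchyme, by -5.16 (SE 0.47). Msx2, an ectodermal homeobox factor placed in the list, was higher in epithelia (2.64, SE 0.47), with 1 of 2 other probe sets not called alike. Complement and innate plasma proteins were higher in fibroblasts for 19 of 26 (median -3.25), with Serping1, the C1 inhibitor, at 6.60, 5.05 and 5.10 against 12.28, 12.26 and 13.13 and Lcn2, an iron-scavenging lipocalin, at a difference of -5.33 (SE 0.33). The growth factor Igf1 was 113-fold higher in fibroblasts (-6.82, SE 0.32).

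**Figure D3:**
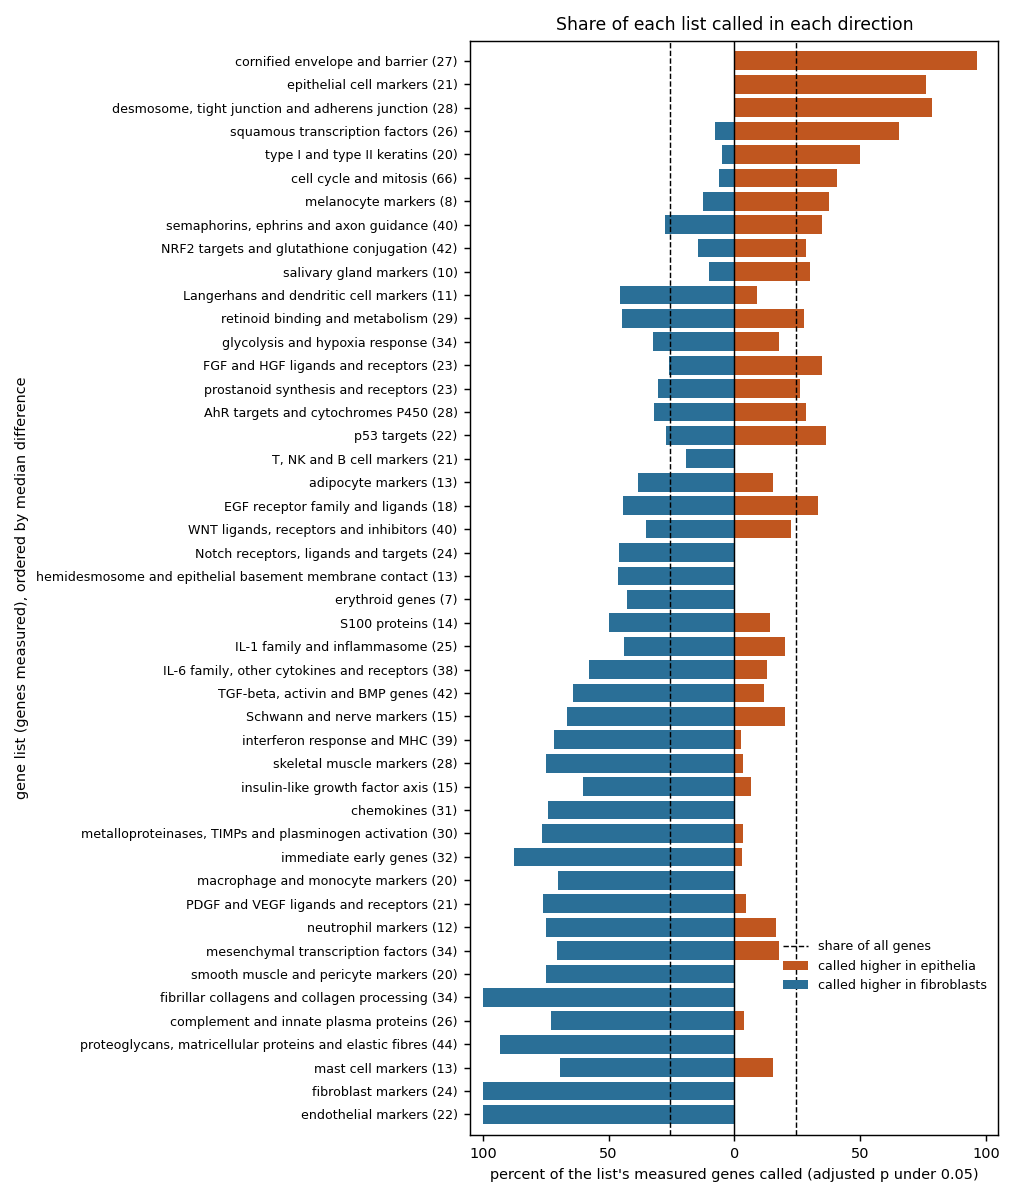
Share of the measured genes of each of the 46 lists that was called higher in epithelia (right) or higher in fibroblasts (left) in dysplasia, ordered by median difference, with the share over all genes as dashed lines (24.5% and 25.7%). On deposited values the cornified envelope list (26 of 27) is at one end and the endothelial list (22 of 22) at the other, and aligning the arrays on the added controls moves all lists by 1.42 towards epithelia and turns the median of 18 of them.

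IL-1 genes were split between the layers by branch of the family. Of 25 measured, 5 were higher in epithelia and 11 in fibroblasts, with a median of -0.65 that turned to 0.77 when aligned on the added controls. Il1b, the secreted IL-1 beta, read 9.16, 6.33 and 7.11 in epithelia and 12.69, 12.67 and 12.83 in fibroblasts, so that the layers did not overlap and epithelia 1 was the highest of its layer (-5.20, SE 0.63, adjusted p = 0.000442, limma). Il1a, the keratinocyte alarmin IL-1 alpha, read 8.18, 8.11 and 7.82 against 9.52, 9.45 and 10.57 (-1.81, SE 0.30). The signalling receptor Il1r1 was higher in fibroblasts (-2.46, SE 0.19), with 2 other probe sets not called alike, and so was the decoy receptor Il1r2, at 7.94, 8.57 and 8.36 against 11.52, 11.45 and 10.42 (-2.85, SE 0.31). The receptor antagonist Il1rn was not called, at 8.83, 8.60 and 8.42 against 8.75, 8.34 and 8.23 (0.18, SE 0.18, adjusted p = 0.462, limma).

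The IL-36 branch, which acts in squamous epithelia, was on the other side. Il36b, IL-36 beta, read 9.83, 10.36 and 9.64 in epithelia and 5.43, 5.07 and 5.15 in fibroblasts (4.72, SE 0.21, adjusted p = 7.74e-06, limma), and its antagonist Il36rn differed by 3.48 (SE 0.36). Gsdma, the gasdermin of skin and upper epithelia, read 8.90, 9.80 and 9.29 against 4.70, 4.73 and 5.11 (4.48, SE 0.24). Casp1 and Casp4, the inflammatory caspases that mature IL-1 beta or open gasdermin pores, were higher in fibroblasts (-2.78, SE 0.24, and -1.76, SE 0.23). Traf6, an adaptor of IL-1 receptor signalling, was higher in epithelia (1.29, SE 0.13), with 1 of 3 other probe sets not called alike.

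Chemokines were higher in fibroblasts for 23 of 31 and in epithelia for 0 (median -1.84). Cxcl1, a neutrophil attractant, read 8.27, 7.51 and 7.33 in epithelia and 13.15, 13.16 and 13.35 in fibroblasts (-5.52, SE 0.24, adjusted p = 7.74e-06, limma). Cxcl2, its close relative, scattered in epithelia (9.21, 6.17 and 7.60) but not in fibroblasts (13.12, 13.08 and 13.25), with epithelia 1 again the highest of its layer. Ccl21, the attractant of lymphatic vessels, differed by -6.36 (SE 0.24), the eosinophil attractant Ccl11 by -5.81 (SE 0.46) and the stromal factor Cxcl12 by -4.37 (SE 0.27). In the list of IL-6 family and other cytokines, 22 of 38 were higher in fibroblasts and 5 in epithelia, with a median of -0.72 that turned to 0.69 when aligned on the added controls, and 13 were left on the fibroblast side when dim probe sets were left out.

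Growth factor ligands of the EGF family were divided. Of 18 genes, 6 were higher in epithelia and 8 in fibroblasts (median -0.17, or 1.25 aligned on the added controls). Tgfa, the autocrine ligand of keratinocytes, read 9.90, 9.91 and 9.90 in epithelia and 7.62, 7.59 and 7.47 in fibroblasts (2.34, SE 0.12), and Ereg, epiregulin, differed by 1.87 (SE 0.17). Hbegf, which is shed in wounds, was higher in fibroblasts (-2.23, SE 0.17). Their receptor Egfr read 11.07, 10.97 and 10.91 against 10.36, 10.28 and 10.32 (0.66, SE 0.12), a small difference without overlap.

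The FGF and HGF list gave 8 of 23 higher in epithelia and 6 in fibroblasts (median -0.04, or 1.38 aligned on the added controls), with 3 on the fibroblast side without epithelia 2 or without fibroblasts 3. Fgf7, keratinocyte growth factor, read 4.71, 4.44 and 4.66 in epithelia and 8.62, 8.06 and 9.85 in fibroblasts (-4.24, SE 0.41), and Fgfr1, the receptor of mesenchymal cells, differed by -4.61 (SE 0.20). Fgf22, a ligand made by epithelial cells, read 7.39, 8.13 and 7.72 against 4.28, 4.15 and 4.44 (3.46, SE 0.20). Genes of TGF-beta, activin and BMP signalling were higher in fibroblasts for 27 of 42 and in epithelia for 5 (median -0.90, or 0.51 aligned on the added controls), with 2 on the epithelial side without epithelia 1 and 3 without epithelia 2 or 3. The BMP antagonist Grem1 (-6.82, SE 0.39) and the ligand Gdf10 (-6.54, SE 0.47) were the furthest apart.

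Ligands were then set beside their receptors, to see in which layer each was higher. Of 72 listed pairs, 57 had both genes measured and 28 had both called, of which 13 were higher in fibroblasts for both genes and 5 higher in epithelia for both. Over all genes 24.5% were called higher in epithelia and 25.7% higher in fibroblasts, and some genes stand in several pairs. Whether any pair count exceeds what these shares would give was not tested. Crossed pairs with the ligand in fibroblasts and the receptor in epithelia numbered 8. They were Fgf7 and Fgf10 with Fgfr2, Fgf18 with Fgfr3, Hbegf with Egfr, Cxcl1 with Cxcr2, Bmp4 with Bmpr1a, Kitlg with Kit, and Mdk with Sdc1. Among these receptors Fgfr3 (1.60, SE 0.30), Cxcr2 (0.95, SE 0.18), Bmpr1a (0.95, SE 0.13) and Sdc1 (0.78, SE 0.19), a heparan sulphate proteoglycan, kept their calls with each array left out. The ligands Bmp4 (-2.08, SE 0.26), Kitlg, the stem cell factor (-3.42, SE 0.34), and Mdk, midkine (-3.76, SE 0.37), did so too, with 1 of 3 other probe sets of Kitlg not called alike. Fgfr2, the receptor of Fgf7, read 10.70, 10.35 and 10.57 against 10.04, 10.07 and 9.72 (0.60, SE 0.16), and its call was lost without epithelia 1 (adjusted p = 0.0565) or epithelia 3 (adjusted p = 0.0588, limma), while 3 of its 4 other probe sets were not called alike.

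Calls of other members of crossed pairs were lost with 1 array left out, although the differences kept their direction. Kit was dim in both layers (4.78, 5.13 and 5.14 against 4.51, 4.45 and 4.10) and was not called without epithelia 2 (0.61, adjusted p = 0.0527) or epithelia 3 (0.61, adjusted p = 0.0598, limma). Fgf10 (-1.24) was not called without epithelia 2 (-0.94, adjusted p = 0.0758) or fibroblasts 3 (-0.88, adjusted p = 0.052, limma). Fgf18 (-0.76) kept its call only without fibroblasts 1, and was -0.56 to -0.79 in the other 5 fits. The opposite crossing, with the ligand in epithelia and the receptor in fibroblasts, was found for 2 pairs. Pdgfd, a ligand of mesenchymal cells, read 6.74, 6.81 and 6.53 against 4.76, 5.28 and 5.21 (1.61, SE 0.18), and its receptor Pdgfrb differed by -1.31 (SE 0.19). Nrg1, neuregulin, differed by 1.11 (SE 0.14), but 4 of its 7 other probe sets were not called alike, and the call of its receptor Erbb3 (-0.58, adjusted p = 0.0375) was kept in 2 of 6 fits, with adjusted p of 0.0771 to 0.107 in the other 4, those without epithelia 2 or 3 or without fibroblasts 1 or 2 (limma). Receptors under 1.42 on the fibroblast side (Pdgfrb and Erbb3) turned to the epithelial side when aligned on the added controls, and so did Fgf10 and Fgf18.

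**Figure D4:**
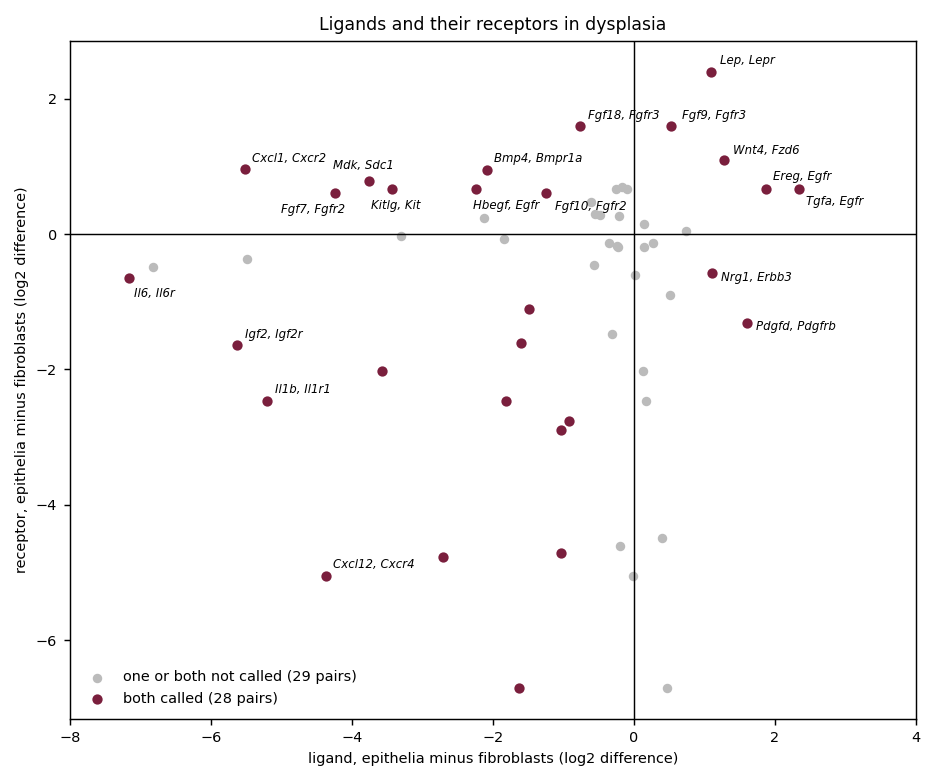
Layer difference of the ligand (horizontal) against that of the receptor (vertical) for 57 measured pairs in dysplasia, as log2 differences with positive values higher in epithelia (dark, both called; grey, one or both not called). Pairs with both genes higher in fibroblasts fill the lower left (13), 8 lie upper left and 2 lower right, and aligning the arrays on the added controls would move every point by 1.42 up and to the right.

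Among proliferation genes, more were called higher in epithelia than in fibroblasts, but the share depended on single arrays. Of 66 cell cycle and mitosis genes, 27 were higher in epithelia and 4 in fibroblasts (median 0.67 beside 0.06 over all genes). Only 14 were left on the epithelial side without epithelia 1 and 15 without epithelia 3. The median was 0.40 without fibroblasts 3. Cdkn2a, the locus of the p16 inhibitor, read 10.44, 10.77 and 10.57 in epithelia and 8.97, 7.79 and 7.17 in fibroblasts (2.62, SE 0.41, adjusted p = 0.00158, limma). Hells, a chromatin remodeller of replicating cells, differed by 1.74 (SE 0.26), the mitotic motor gene Kif11 by 1.63 (SE 0.24) and E2f7, a repressor of the cycle, by 1.51 (SE 0.25). Cdkn1c, the p57 inhibitor of resting cells, was on the fibroblast side (-3.88, SE 0.26). NRF2 targets, which answer oxidants and electrophiles, were higher in epithelia for 12 of 42 and in fibroblasts for 6 (median 0.32). Shares over all genes were 24.5% and 25.7%, and 7 were left on the epithelial side without epithelia 1 and 5 without epithelia 3. The count of NRF2 targets is thus not read as a lean to the epithelia. Me1, malic enzyme, read 12.17, 12.19 and 12.08 against 9.99, 9.88 and 8.93 (2.55, SE 0.27), and the cystine carrier Slc7a11 differed by 2.37 (SE 0.57). Gsta1, a glutathione transferase, was higher in fibroblasts instead (-1.84, SE 0.45).

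Immediate early genes, which answer handling and growth signals within minutes, were higher in fibroblasts for 28 of 32 and in epithelia for 1 (median -1.88). Fosb, an AP-1 subunit, read 5.81, 8.21 and 8.04 in epithelia and 12.93, 12.91 and 13.31 in fibroblasts (-5.70, SE 0.58). Atf3, a stress factor, read 6.08, 9.13 and 8.62 against 12.95, 12.97 and 13.16 (-5.09, SE 0.70). Epithelia 1 was the lowest array for both. Egr2 was as far apart (-5.52, SE 0.22), with 1 other probe set not called alike, and so was Klf2, a factor of endothelial and resting cells (-5.87, SE 0.19), for which 2 of 4 other probe sets were not called alike. Whole lesions were left in dispase, but only the fibroblasts were then digested with collagenase and plated. Handling and layer therefore cannot be told apart for these genes, nor for the cytokines and chemokines above. Interferon response and MHC genes were higher in fibroblasts for 28 of 39 and in epithelia for 1 (median -1.33, or 0.08 aligned on the added controls), with Irf1, an interferon-induced factor, at -4.50 (SE 0.22) and Ifit2, an antiviral protein, at -3.43 (SE 0.27).

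The same layer difference was then compared with that of normal tongue, in a test of the difference between the stages over 12 arrays. It differed for 796 of 14217 genes (5.60%), 420 more positive in dysplasia and 376 more negative. Counted over all probe sets, 1540 differed, and this count fell to 465 without dysplasia epithelia 3 and rose to 3355 without dysplasia fibroblasts 3. Over the normal arrays 18763 probe sets were called between the layers, beside 14746 in dysplasia. Medians of the layer-defining lists were nearer 0 in dysplasia than in normal tongue, at 2.53 beside 4.22 for the cornified envelope, 1.09 beside 1.65 for junctions, -3.22 beside -4.54 for collagens and -4.33 beside -5.45 for fibroblast markers. The difference was called for 5 of 27, 1 of 28, 5 of 34 and 4 of 24 genes, beside 5.60% of all genes. Each of these list genes had a smaller layer difference in dysplasia. Some other lists were further from 0 in dysplasia than in normal tongue. Among them were mast cell (-3.71 beside -2.15), smooth muscle and pericyte (-3.08 beside -2.62) and skeletal muscle markers (-1.60 beside -0.75). Epithelial markers had a mean of 9.65 to 10.45 on the dysplasia and 8.41 to 10.18 on the normal fibroblast arrays, and their part in the smaller differences was not tested.

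The genes named by rule with a more positive layer difference in dysplasia were all nearer between the layers. Ccl2, the monocyte attractant, read 8.74, 8.66 and 9.74 in dysplasia epithelia against 12.09, 12.16 and 12.81 in fibroblasts, a difference of -3.31 beside -8.11 in normal tongue (stage difference 4.80, adjusted p = 0.00076, limma). Normal epithelia had read 4.59 to 5.12 for Ccl2. S100a9, a subunit of the alarmin calprotectin, differed by -2.51 beside -6.46 (3.95, adjusted p = 0.0026), Slfn5, an interferon-induced gene, by -1.11 beside -5.60 (4.48), Gsta1 by -1.84 beside -5.62 (3.78), Mecom, a zinc finger oncogene, by -0.48 beside -4.97 (4.50), and Adam23, a disintegrin, by -1.33 beside -5.02 (3.69). The last of these was the weakest within dysplasia, where Adam23 was called at an adjusted p of 0.049 that was lost in 4 of 6 fits with 1 array left out, and 2 other probe sets were not called alike.

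Other genes had a more negative layer difference in dysplasia. Saa3, an acute phase protein, read 6.41, 5.40 and 5.37 in dysplasia epithelia and 10.78, 10.70 and 9.25 in fibroblasts (-4.52, SE 0.45), beside a difference of 0.21 in normal tongue (stage difference -4.73, adjusted p = 0.00309, limma). Serpina3n, a protease inhibitor of the acute phase, had the same pattern (-4.41 beside 0.17), and both genes were lower in fibroblasts 3 than in the other fibroblast arrays. Il1r2 went from 0.74 to -2.85 (stage difference -3.58, adjusted p = 0.00185), and Mcpt10 from -2.47 to -6.99 (-4.52). The Mcpt10 signals of epithelia at both stages and of most normal fibroblasts are at the low end, and its stage difference was -3.26 with values under 32 set to 32. Rbp2, a retinol carrier, was higher in epithelia at both stages, but by 1.92 in dysplasia and 5.87 in normal tongue, with dysplasia fibroblasts at 10.06, 10.09 and 9.75 and normal fibroblasts at 4.79 to 6.10. Tbc1d10c, a regulator of small GTPases, went from 3.03 to -0.47, and was not called within dysplasia. Aligned on the added controls, the dysplasia differences of Mecom, Slfn5, Adam23 and Tbc1d10c lay on the epithelial side.

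Further genes described above also differed between the stages. The layer difference was smaller in dysplasia for Sprr2d (2.88 beside 6.03), Tgfa (2.34 beside 3.92), Nrg1 (1.11 beside 2.61), Fgf22 (3.46 beside 5.37), Adamts1 (-4.72 beside -6.67), Pdpn (-2.25 beside -4.11), Hbegf (-2.23 beside -3.91), Cxcl1 (-5.52 beside -7.37), Psmb8 (-2.44 beside -4.73) and Gbp2 (-3.07 beside -4.90). Adamts1 is a secreted protease of the matrix, Pdpn the mucin podoplanin, Psmb8 a subunit of the immunoproteasome and Gbp2 a GTPase induced by interferon. It was larger for the complement protein C3 (-3.35 beside -1.84) and for Cdkn2a (2.62 beside 0.05, stage difference 2.56, adjusted p = 0.019), although the Cdkn2a call was lost without dysplasia epithelia 3 (adjusted p = 0.0523) or dysplasia fibroblasts 2 (adjusted p = 0.0514, limma). Of the cell cycle list, 10 of 66 genes differed between the stages and all 10 were more positive in dysplasia, where the list median was 0.67 beside -0.17 in normal tongue. Of the IL-1 list 4 of 25 differed, all more negative in dysplasia. Il1a turned from 0.69 in normal tongue to -1.81 (stage difference -2.50, adjusted p = 0.0229, lost in 3 of 12 fits with an array left out, those without normal epithelia 1 or 3 or dysplasia epithelia 3, with adjusted p of 0.0575, 0.059 and 0.0682), and Il1rn went from 1.96 to 0.18 (-1.79, adjusted p = 0.0128, limma).

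Against SCC the layer difference in dysplasia differed for 53 of 14217 genes (0.373%), 51 of them more positive in dysplasia, and at an unadjusted p under 0.05 for 1681. Neither the count nor its direction was stable. Over all probe sets 140 differed, but 0 did by limma without dysplasia epithelia 2 or 3, dysplasia fibroblasts 2 or SCC fibroblasts 1 or 2, 443 did without SCC fibroblasts 3, and without SCC epithelia 3 there were 98 more positive and 75 more negative. Blocking on replicate number also gave 0. The genes named by rule were Il1rn, Nefh, Rab11fip1, F2rl2, Ereg and Mxd1. Il1rn had a difference of 0.18 in dysplasia and of -2.88 in SCC (stage difference 3.05, adjusted p = 0.0304, limma). Nefh, a neurofilament chain, was higher in dysplasia epithelia, at 8.84, 8.57 and 9.01 against 6.03, 5.81 and 4.96, a difference of 3.20 beside 0.42 in SCC, and Rab11fip1, a vesicle recycling adaptor, went from 3.40 in dysplasia to 0.74 in SCC. Ereg went from 1.87 in dysplasia to -0.34 in SCC, Mxd1, a MYC antagonist of differentiating cells, from 0.38 to -1.75, and F2rl2, a protease-activated receptor, from -0.80 (0.62 aligned on the added controls) to -3.30. None of these 6 calls was kept with each of the 12 arrays left out, and they were kept in 1 to 6 of the 12 fits. The fibroblast markers had means of 7.10 to 10.40 on the SCC epithelia arrays, beside 6.68 to 7.45 in dysplasia epithelia.

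**Figure D5:**
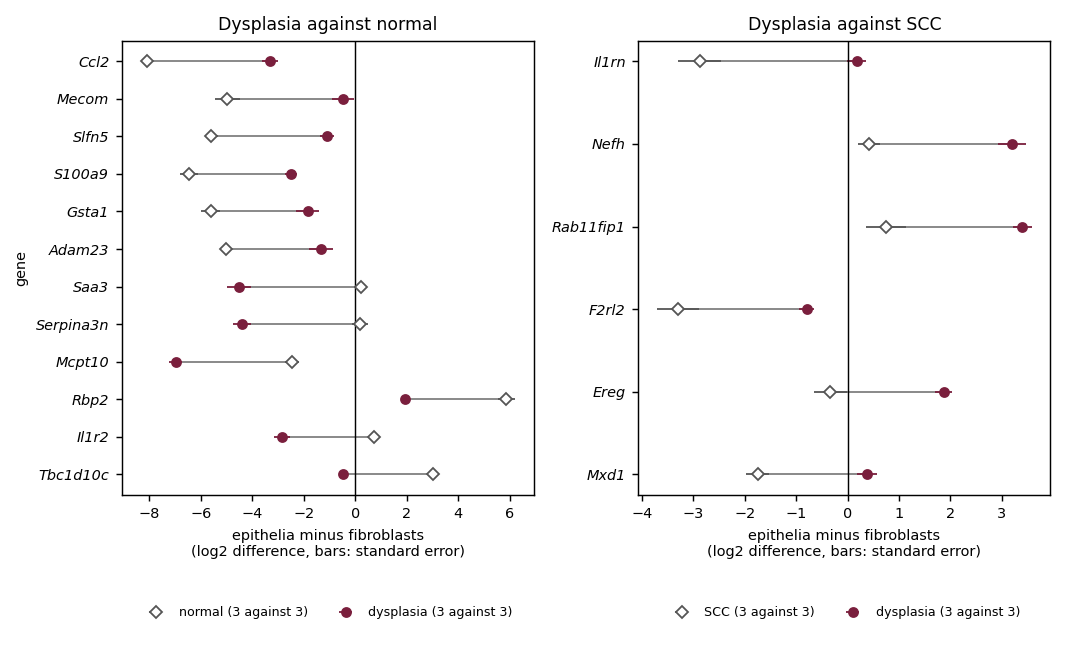
Layer difference (epithelia minus fibroblasts, log2, bars the standard error of the fit) in dysplasia (filled) and in normal tongue (open, left) or SCC (open, right) for the genes named by rule in each comparison between stages. Ccl2 goes from -8.11 in normal tongue to -3.31 in dysplasia and Rbp2 from 5.87 to 1.92, whereas Saa3 goes from 0.21 to -4.52. Aligned on the added controls, the dysplasia values of Mecom, Slfn5, Adam23, Tbc1d10c and F2rl2 lie above 0.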

How the data were processed

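Gene expression was measured on 18 Affymetrix Rat Genome 230 2.0 arrays, 3 in each of 6 groups, and the 6 dysplasia arrays were compared here, with the normal and squamous cell carcinoma (SCC) arrays used for comparisons between stages. The authors summarized the probes with RMA and the Affymetrix Expression Console (versions not given in the sources used here) and deposited 1 linear signal intensity per probe set, without detection calls, and all value columns were matched to a sample (0 were not). The array number and the absence of detection calls limit the precision, and signals near the lowest value have no firm order.

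From the deposited intensities, log2 values were computed, 57 control probe sets were left out and 31042 were tested with limma 3.58.1 in R 4.3.3 (lmFit and eBayes, 3 against 3, Benjamini-Hochberg adjustment, adjusted p under 0.05). Differences between stages were tested as interactions over 12 arrays. An exact permutation test of 3 against 3 cannot go below 0.10 and was not used. The brightest probe set over the 6 arrays stood for each of 14217 genes, and gene names came from GEO's platform annotation, with 20826 probe sets naming 1 gene, 436 several and 9780 none. The fit was tested on simulated data.

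The compared groups, the 46 gene lists, the pairs and the rules were chosen with earlier results of these data known. Named genes were the 12 largest in each direction (groups not overlapping, mean log2 of the higher group at least 8), up to 6 per list, both members of called pairs, IL-1 genes and defining markers, and for each comparison between stages 6 in each direction, where the layers had to be apart in the stage with the larger layer difference. The labels do not state whether same-numbered epithelia and fibroblasts came from the same rats, and their deviations from the group means did not correlate throughout in dysplasia (-0.113, 0.081 and -0.045), so no block was used.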

Additional observations from a re-analysis of the deposited data

Results flagged for a closer look

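The layer difference of dysplasia differed from that of normal tongue for 796 genes and from that of SCC for 53, by limma's test of the difference itself over 12 arrays. The values below are the difference in dysplasia minus that in the other stage, in log2 units, for each gene named above.

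More positive in dysplasia than in normal tongue were Ccl2 (4.80), Mecom (4.50), Slfn5 (4.48), S100a9 (3.95), Gsta1 (3.78), Adam23 (3.69), Cdkn2a (2.56), Psmb8 (2.29), Adamts1 (1.95), Pdpn (1.86), Cxcl1 (1.85), Gbp2 (1.83) and Hbegf (1.68). More negative were Saa3 (-4.73), Serpina3n (-4.58), Mcpt10 (-4.52, or -3.26 with values under 32 set to 32), Rbp2 (-3.95), Il1r2 (-3.58), Tbc1d10c (-3.51), Sprr2d (-3.15), Il1a (-2.50), Fgf22 (-1.92), Il1rn (-1.79), Tgfa (-1.58), C3 (-1.52) and Nrg1 (-1.50). Of these 26 calls, 24 were kept with each of the 12 arrays left out, the exceptions being Cdkn2a and Il1a.

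More positive in dysplasia than in SCC were Il1rn (3.05), Nefh (2.78), Rab11fip1 (2.66), F2rl2 (2.51), Ereg (2.21) and Mxd1 (2.13). None of these 6 calls was kept with each of the 12 arrays left out. Il1rn appeared in both comparisons with opposite signs, but its call against SCC was kept in only 2 of 12 fits.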

How the results depend on the processing

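The number of probe sets called between the layers in dysplasia was 14746 of 31042 tested. It was 8557 of 14315 with dim probe sets left out, and 7363 of 14217 with 1 probe set per gene. Counts with 1 probe set per gene in this section come from testing those 14217 alone, and so differ from the gene counts above. Over all 31042, it was 28382 aligned on the added controls, 6888 at an unadjusted p with a fold of 2 and 6834 with the adjusted p and a fold of 2. It ran from 11416 to 14805 with 1 array left out. Against normal tongue (1540) it was 683 aligned on the added controls, 972 by the ordinary t statistic, 5251 at a fold of 1.5, 935 with 1 probe set per gene, and 8258 with array weights, a fit that had not converged. It ran from 465 (without dysplasia epithelia 3) to 3355 (without dysplasia fibroblasts 3). Against SCC (140) it was 55 after quantile normalization, 20897 aligned on the added controls, 273 with a floor of 32, 2640 with array weights, 52 by the ordinary t statistic or with 1 probe set per gene, and 1053 and 2801 at folds of 2 and 1.5. It ran from 0 to 443, with 0 by limma without dysplasia epithelia 2 or 3, dysplasia fibroblasts 2, or SCC fibroblasts 1 or 2. With the replicate block the counts were 13351, 599 and 0, beside 3871 probe sets at an unadjusted p under 0.05 against SCC without the block. Whether the replicate numbers mark shared rats is not stated by the labels, and same-numbered samples did not deviate together in dysplasia.

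Alignment on the added controls turned the layer difference of Krt5 (1.32), Tbc1d10c (0.95), Mecom (0.94), Erbb3 (0.84), Fgf18 (0.66), F2rl2 (0.62), Slfn5 (0.31), Fgf10 (0.17), Pdgfrb (0.10), Lama5 (0.10) and Adam23 (0.086), and the cause was not tested. No other alternative reversed a named gene.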

Other observations

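Counts for the gene lists not described above are read against background shares of 24.5% higher in epithelia and 25.7% higher in fibroblasts. WNT genes were higher in epithelia for 9 of 40 (5 without epithelia 1) and in fibroblasts for 14, and Notch genes for 0 and 11 of 24, with medians of -0.21 and -0.28 that turned to 1.20 and 1.13 when aligned on the added controls. The semaphorin, ephrin and axon guidance list gave 14 and 11 of 40, the retinoid list 8 (5 without epithelia 1) and 13 of 29, and the AhR and cytochrome P450 list 8 and 9 of 28. Glycolysis and hypoxia genes were higher in epithelia for 6 and in fibroblasts for 11 of 34, prostanoid genes for 6 and 7 of 23, and p53 targets for 8 (5 without epithelia 3 or fibroblasts 2) and 6 of 22. The medians of the last 3 and of the AhR list were between -0.11 and -0.02 and lay between 1.31 and 1.39 under that alignment.

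PDGF and VEGF genes were higher in fibroblasts for 16 of 21, genes of the insulin-like growth factor axis for 9 of 15 and S100 genes for 7 of 14 (median -0.52, or 0.90 aligned on the added controls). In these lists 1, 1 and 2 genes were higher in epithelia. Schwann cell and nerve markers were higher in fibroblasts for 10 of 15 and in epithelia for 3. Langerhans and dendritic cell markers gave 5 and 1 of 11, adipocyte markers 5 and 2 of 13 and erythroid genes 3 and 0 of 7. The medians turned for the Schwann cell (-1.09 to 0.33), adipocyte (-0.15 to 1.26) and erythroid (-0.47 to 0.95) lists. Some members were far on the fibroblast side, such as S100b (-6.99), Fabp4 (-6.90), Hbb (-6.34) and Alas2 (-4.34). Others were called higher in epithelia, such as Nefh (3.20), Lep (1.10) and Pparg (1.08). The adipocyte genes Plin1, Plin4 and Cidec were not called. Aligned on the added controls, 6 Schwann cell, 4 adipocyte and 2 erythroid genes were called higher in fibroblasts. Under that alignment 6, 9 and 4 genes of these lists were called higher in epithelia. Melanocyte markers were higher in epithelia for 3 of 8 (1 without epithelia 2 or 3) and in fibroblasts for 1. Salivary gland markers were higher in epithelia for 3 of 10, all dim, and in fibroblasts for 1, the amylase gene Amy1 (-3.32, adjusted p = 0.0304, limma, a call kept only without fibroblasts 3), which was singled out after its values were seen.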
